A study of Mus musculus with 12 samples.

Results

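The mitochondrial ribosomal protein genes are the nuclear genes that encode the proteins of the ribosome inside mitochondria, with the symbols Mrpl (large subunit) and Mrps (small subunit). They were found by the transcript accession of each array probe: every probe was kept whose accession belongs to a gene with a symbol that begins with Mrpl or Mrps and a number, pseudogenes left out. All 78 such genes of the gene table had a probe, 49 of them Mrpl and 29 Mrps, with 115 of the 41174 probes on the array. A gene with several probes is represented by its brightest one, and no expression difference was used to choose a member.

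The cells were 3T3-L1, a mouse embryonic fibroblast line of preadipocytes that can be turned into adipocytes in culture. Confluent cells were lysed without hormonal induction (0 h) or 6 h after addition of 0.5 mM isobutylmethylxanthine (IBMX), 1 µM dexamethasone and 5 µg/ml insulin, in a medium with fetal bovine in place of newborn bovine serum. Lysates were run on sucrose gradients with cycloheximide, which holds ribosomes on their messages, with non-polysomal RNA (np) combined from fractions 5 to 7 and polysomal RNA (p) from fractions 9 to 11. Each of the 4 groups (np0, p0, np6 and p6) had 3 replicates, called biological replicates in the methods, on 12 one-color arrays. Control RNAs (spike-ins) were added in an amount set for a given mass of RNA. A signal is therefore taken as a level per amount of RNA in a pool and not per cell. In such bulk RNA fewer cells that hold a message and less message per cell cannot be told apart. The pools hold only the middle and the heavy part of the gradient, and the cells are a single established line.

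Mitochondria translate a small set of messages of their own genome, which encode core subunits of the respiratory chain and the ATP synthase, on ribosomes whose RNAs are mitochondrial but whose proteins all come from the nucleus. The messages of these proteins are therefore translated in the cytosol and the products imported. Part of the proteins have a counterpart in bacterial ribosomes and part are particular to mitochondria, and mitochondria are known to become more abundant as preadipocytes turn into adipocytes. In a sucrose gradient a message travels further the more ribosomes it carries, and a short coding sequence has room for few.

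All 78 genes were rated well above background on all 12 arrays, and none had a missing value or a saturated spot. The scanner software gave that rating to 55.7% to 60.8% of all probes, and 75th percentiles of intensity ran from 224 to 267 on non-polysomal and from 401 to 528 on polysomal arrays. All 9 fibroblast markers were well above background on every array, as were all 4 markers of mature adipocytes at both times, whereas 0 of 2 endothelial markers, 1 of 3 epithelial and 1 of 3 macrophage and leukocyte markers on the array were. Among the adipocyte markers only Fabp4 was bright, with group means of 14.22 to 16.47 on the log2 scale. Plin1, Adipoq and Cidec had group means of 3.72 to 7.05, beside medians over all probes of 4.10 to 4.83 on the arrays. Values are given as log2 signals, scaled so that the mean of 10 spike-ins is the same on every array. Differences are on the log2 scale and were tested with limma (Benjamini-Hochberg adjustment over all probes), and a gene was called where its adjusted p was below 0.05 and its difference above 1 or below -1, that is more than 2-fold.

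The study's main measure, the M-value, sets the changes of both pools against each other, M = (p6 - p0) - (np6 - np0), where each symbol stands for the mean log2 signal of a group. The spike-ins did not shift evenly. The 5 brighter ones (mean log2 signal 18.30 to 19.06) read -0.28 to -0.02 relative to the other 9 arrays on the polysomal arrays of 6 h, and the 5 dimmer ones (7.82 to 16.80) read -0.91 to -0.76. The offsets of the 6 h polysomal arrays were -0.48 to -0.21 and those of the others 0.05 to 0.17, so that this scaling raised all M-values by 0.50. A constant per array moves all genes alike, so the order of the genes and the distance of a gene from the median of all probes do not depend on it, but the sign of a single difference can. Each result is therefore given beside the value over all probes, and other scalings are named where they turn it.

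Before induction the messages of the mitochondrial ribosome were spread over both pools, by up to 6.52-fold toward the polysomal and 5.82-fold toward the non-polysomal side. The polysomal signal was higher for 43 genes (55.1%) and lower for 25 (32.1%) at an adjusted p below 0.05. This held for 37.1% and 14.9% of all probes, and for 64% and 21.1% of the probes rated well above background throughout. The median p0 - np0 was 0.41, against 0.15 over all probes and 0.88 over those well above background. Of the 78 genes, 27 were called higher in the polysomal pool, where 27.4% of all probes were, and 11 lower, where 9.81% of all probes were. These were 34.6% and 14.1% of the genes, beside 46.5% and 12% of the probes rated well above background throughout. The 3 polysomal values lay entirely above the 3 non-polysomal ones for 44 genes and entirely below for 26 (38.8% and 16% of all probes). The median turned negative with scaling to the 75th percentile (-0.48) and with quantile normalization (-0.23), where 27 genes were higher and 46 lower, and 31 higher and 44 lower, at an adjusted p below 0.05.

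At 6 h the pools lay further apart for 57 of 78 genes with the spike-in offset, for 42 with quantiles and for 40 with the 75th percentile. The median p6 - np6 was 1.23 (0.68 over all probes, 1.32 over those well above background). At an adjusted p below 0.05, 60 genes (76.9%) were higher and 17 (21.8%) lower. This held for 60% and 9.96% of all probes, and for 75.7% and 13.6% of those well above background. Of the genes, 45 were called higher (37.4% of all probes, 59% of those well above background) and 9 called lower (6.41% and 7.46%). With scaling to the 75th percentile the median was -0.09 and with quantile normalization -0.05. The 3 polysomal values were entirely above the non-polysomal ones for 60 genes and entirely below for 17 (67.3% and 10.7% of all probes). Across the 78 genes the differences at 0 h and at 6 h, which come from different arrays scaled and processed alike, had a Pearson correlation of 0.96 (Spearman 0.95), beside 0.90 (0.88) across 20347 probes rated so throughout. Genes are not independent replicates, and no test was made. The standard deviation over the genes was 1.28 at 0 h and 1.43 at 6 h, beside a median standard deviation between replicates of 0.09 and 0.07. Under all 5 scalings tried (the spike-in offset, the 75th percentile, quantiles, a straight line through the spike-ins and an offset from the dimmer spike-ins), 28 genes were higher in the polysomal pool at both times and 12 were lower at both times.

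Mrps5, the counterpart of a bacterial small subunit protein, had the highest p0 - np0. Non-polysomal Mrps5 read 8.64, 8.78 and 8.81 at 0 h and 8.85, 8.87 and 8.87 at 6 h. Polysomal Mrps5 read 11.35, 11.56 and 11.45 at 0 h and 11.89, 11.82 and 11.87 at 6 h. Every polysomal value exceeded every non-polysomal one, by 2.71 (SE 0.08, adjusted p = 1.57e-09) at 0 h and 3.00 (SE 0.08, adjusted p = 3.77e-10) at 6 h. Mrps31, a small subunit protein particular to mitochondria, came next. Non-polysomal Mrps31 read 9.36, 9.49 and 9.38 at 0 h and 9.74, 9.65 and 9.58 at 6 h. Polysomal Mrps31 read 11.80, 12.01 and 11.87 at 0 h and 12.65, 12.67 and 12.82 at 6 h. Its pools did not overlap either and were 2.49 apart at 0 h and 3.06 at 6 h (adjusted p = 5.17e-10). Mrpl39, which lies near the exit of the peptide tunnel, had the highest p6 - np6, 3.08 (SE 0.09, adjusted p = 5.37e-10). Non-polysomal Mrpl39 read 10.16, 10.20 and 10.16 at 0 h and 10.06, 10.01 and 10.08 at 6 h. Polysomal Mrpl39 read 12.25, 12.50 and 12.50 at 0 h and 13.10, 13.06 and 13.25 at 6 h. Its polysomal signal rose with time (adjusted p = 4.97e-05), its non-polysomal one did not pass (adjusted p = 0.338), and the M-value was 0.84 (SE 0.12, adjusted p = 0.000535).

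Mrpl46, a protein of the central protuberance (the crest of the large subunit where it meets the small one), and Mrpl16, the counterpart of a bacterial protein near the site of peptide bond formation, complete the polysomal end. Non-polysomal Mrpl46 read 8.01, 8.22 and 8.09 at 0 h and 8.54, 8.41 and 8.42 at 6 h. Polysomal Mrpl46 read 10.15, 10.46 and 10.28 at 0 h and 10.79, 10.89 and 10.83 at 6 h. The distance between its pools was 2.19 at 0 h and 2.38 at 6 h, without overlap. Non-polysomal Mrpl16 read 10.89, 10.88 and 10.90 at 0 h and 10.76, 10.69 and 10.71 at 6 h. Polysomal Mrpl16 read 12.81, 12.96 and 13.06 at 0 h and 13.69, 13.62 and 13.88 at 6 h. Its pools drew apart from 2.05 to 3.00.

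The opposite end was held by Mrpl33, Mrpl57, Mrps24 and Mrps21, all but Mrps24 known as very short proteins. Non-polysomal Mrpl33 read 15.14, 15.19 and 15.09 at 0 h and 16.05, 16.05 and 16.04 at 6 h. Polysomal Mrpl33 read 12.45, 12.76 and 12.59 at 0 h and 13.54, 13.57 and 13.74 at 6 h. Every non-polysomal value was above every polysomal one, with a p0 - np0 of -2.54 (SE 0.09, adjusted p = 3.68e-09), the lowest of the 78 genes, and a p6 - np6 of -2.43. Non-polysomal Mrpl57 read 14.61, 14.69 and 14.50 at 0 h and 15.48, 15.35 and 15.30 at 6 h. Polysomal Mrpl57 read 12.17, 12.38 and 12.24 at 0 h and 13.33, 13.47 and 13.59 at 6 h. The pools of this gene, which is particular to mitochondria, were -2.34 and -1.92 apart. Non-polysomal Mrps24 read 12.42, 12.49 and 12.37 at 0 h and 13.64, 13.59 and 13.48 at 6 h. Polysomal Mrps24 read 10.02, 10.22 and 10.16 at 0 h and 11.35, 11.41 and 11.48 at 6 h. The order of the pools was the same at both times (-2.29 and -2.16), with no overlap. Non-polysomal Mrps21 read 11.80, 11.87 and 11.79 at 0 h and 12.71, 12.76 and 12.56 at 6 h. Polysomal Mrps21 read 9.28, 9.73 and 9.63 at 0 h and 10.52, 10.63 and 10.63 at 6 h. Here the difference was -2.27 before and -2.08 after induction. Lengths of the coding sequences were not used here, and their part in the order of the genes was not tested.

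**Figure D1:**
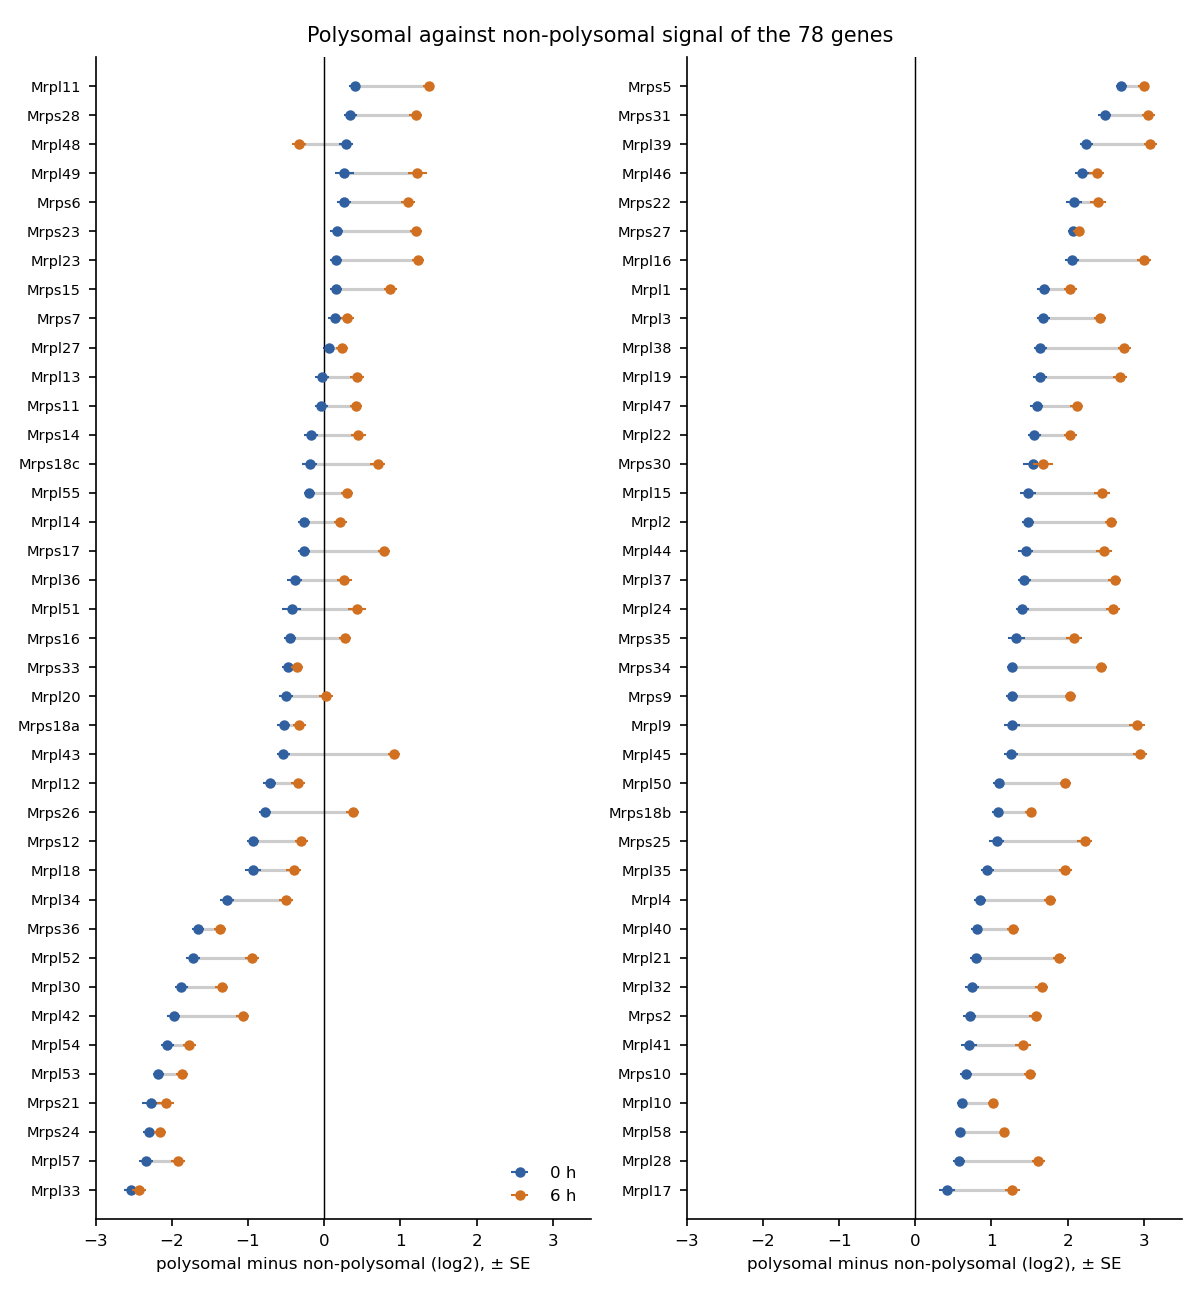
Polysomal minus non-polysomal log2 signal of each of the 78 genes at 0 h (blue) and 6 h (orange), with the standard error of the fit as bars, ordered by the value at 0 h from bottom left to top right. The values at 0 h run from -2.54 (Mrpl33) to 2.71 (Mrps5), the order at 6 h is much the same, and Mrpl48 is the only gene that lies further left at 6 h.

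With the spike-in offset, 13 genes (16.7%) were lower in the polysomal than in the non-polysomal pool at 0 h and higher at 6 h. Of all probes, 19.5% showed this pattern. Among the 13 genes, 8 passed the test at both times (Mrpl43, Mrps26, Mrps17, Mrpl51, Mrps16, Mrpl36, Mrpl55 and Mrpl14). Which genes cross depended on the scaling: with the 75th percentile and with quantiles 8 genes crossed, and none of these 13 was among them. Besides limits on the M-value and the false discovery rate, the study selected its up-regulated messages by 4 signs (p6 above p0, p6 above np6, np6 below np0 and p0 below np0). With the spike-in offset 4 members met these signs (Mrpl51, Mrps16, Mrpl55 and Mrpl14), all with an M-value below 1. The share of all probes that met them was not counted. Under the 75th percentile scaling 4 other members met these signs.

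From 0 h to 6 h the polysomal signal of the mitochondrial ribosomal protein genes rose for nearly all with the spike-in offset, and for fewer with other scalings. It was higher at 6 h for 73 of 78 genes (93.6%) and lower for 1, Mrps9, at an adjusted p below 0.05. The shares were 50.6% and 11.7% of all probes, and 62.5% and 18% of those well above background. The median p6 - p0 was 0.92, against 0.54 over all probes and 0.57 over those well above background. The difference was above 0 for 76 genes with the spike-in offset, 67 with the 75th percentile and 51 with quantiles. More than 2-fold rises were called for 34 genes, 43.6% of them, where 19.2% of all probes and 28.6% of those well above background were called, and no gene was called lower, where 5.01% of all probes were (1 gene at an unadjusted p below 0.05, Mrps9). The 3 values at 6 h lay entirely above those at 0 h for 73 genes and entirely below for 1 (59.5% and 12.7% of all probes). The median stayed above 0 under the other scalings, at 0.17 with quantiles, 0.44 with the 75th percentile and 1.33 with the dimmer spike-ins, and it exceeded that of all probes under each scaling but the straight line through the spike-ins, where it was 1.20 against 1.43.

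The non-polysomal signal changed less and in both directions. It rose for 44 genes (56.4%) and fell for 13 (16.7%) at an adjusted p below 0.05. The shares were 20.5% and 19.7% of all probes, and 36.2% and 32% of those well above background. The median np6 - np0 was 0.36, against 0.04 over all probes and 0.03 over those well above background. Only 6 genes were called higher (8.09% of all probes, 12.4% of those well above background) and 1 lower (8.14% and 10.7%), and the values at 6 h lay entirely above those at 0 h for 49 and entirely below for 18 (24.5% and 23.4% of all probes). Both pools rose for 43 genes (55.1%), a pattern that 33.7% of the probes well above background showed, the polysomal pool alone for 21 (26.9%, beside 20.1%), and the polysomal pool rose while the other fell for 9 (11.5%, beside 8.67%). Across the genes the changes in the 2 pools, from different arrays, had a Pearson correlation of 0.69 (Spearman 0.71), beside 0.80 (0.74) across the probes well above background.

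Mrpl43 and Mrps26, both particular to mitochondria, had the highest p6 - p0, followed by Mrpl50 and Mrpl30. Non-polysomal Mrpl43 read 14.58, 14.69 and 14.60 at 0 h and 15.12, 15.09 and 14.98 at 6 h. Polysomal Mrpl43 read 13.94, 14.17 and 14.14 at 0 h and 15.94, 15.99 and 15.99 at 6 h. The 3 polysomal values at 6 h were the highest of its 12, 3.7-fold above 0 h (1.89, SE 0.08, adjusted p = 2.83e-08). Non-polysomal Mrps26 read 13.30, 13.46 and 13.34 at 0 h and 14.12, 14.05 and 14.02 at 6 h. Polysomal Mrps26 read 12.45, 12.68 and 12.64 at 0 h and 14.40, 14.38 and 14.53 at 6 h. In the same way its polysomal signal moved from the bottom to the top with the spike-in offset, by 1.85. The p6 - np6 of both genes was below 0 with other scalings. With the 75th percentile it was -0.40 for Mrpl43 and -0.94 for Mrps26, and with quantiles -0.09 and -0.70. Non-polysomal Mrpl50 read 10.23, 10.27 and 10.12 at 0 h and 11.18, 11.15 and 11.13 at 6 h. Polysomal Mrpl50 read 11.20, 11.41 and 11.28 at 0 h and 13.09, 13.08 and 13.19 at 6 h. Both pools rose, the polysomal by 1.82 and the non-polysomal by 0.95. Non-polysomal Mrpl30 read 11.64, 11.80 and 11.71 at 0 h and 12.98, 12.88 and 13.00 at 6 h. Polysomal Mrpl30 read 9.70, 9.93 and 9.90 at 0 h and 11.58, 11.56 and 11.69 at 6 h. For Mrpl30, the counterpart of a bacterial large subunit protein, the rise was 1.77 and 1.24, and the non-polysomal pool stayed the higher one.

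The non-polysomal pool rose most for Mrpl12, Mrps7, Mrpl30 and Mrpl20. Mrpl12 forms the flexible stalk that binds translation factors. Non-polysomal Mrpl12 read 12.94, 13.07 and 12.98 at 0 h and 14.40, 14.39 and 14.28 at 6 h. Polysomal Mrpl12 read 12.15, 12.41 and 12.29 at 0 h and 13.93, 13.97 and 14.12 at 6 h. Both pools rose, by 1.36 (SE 0.09, adjusted p = 9.2e-07) in the non-polysomal and 1.73 in the polysomal one. Mrps7 corresponds to a bacterial protein that organises the head of the small subunit. Non-polysomal Mrps7 read 10.82, 10.98 and 10.84 at 0 h and 12.19, 12.09 and 12.13 at 6 h. Polysomal Mrps7 read 10.93, 11.17 and 10.95 at 0 h and 12.44, 12.40 and 12.48 at 6 h. Its rise was almost the same in the pools, 1.25 and 1.42. Non-polysomal Mrpl20 read 13.91, 13.97 and 13.85 at 0 h and 15.08, 15.12 and 15.03 at 6 h. Polysomal Mrpl20 read 13.23, 13.55 and 13.45 at 0 h and 15.09, 15.05 and 15.16 at 6 h. At 6 h the pools of Mrpl20 overlapped, with a p6 - np6 of 0.02 (adjusted p = 0.826), the one gene for which that difference did not pass.

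It fell most for Mrpl9, Mrps9, Mrpl45 and Mrps35. Mrps9, the counterpart of a bacterial protein of the small subunit head, was lower at 6 h in both pools. Non-polysomal Mrps9 read 9.42, 9.55 and 9.49 at 0 h and 8.58, 8.47 and 8.47 at 6 h. Polysomal Mrps9 read 10.68, 10.86 and 10.73 at 0 h and 10.56, 10.49 and 10.57 at 6 h. The fall was -0.98 in the non-polysomal pool (adjusted p = 2.43e-06) and -0.22 in the polysomal one (adjusted p = 0.0279), and the latter turned to a rise with the line through the spike-ins (0.17) and the dimmer spike-ins (0.19). Non-polysomal Mrps35 read 9.89, 9.87 and 9.82 at 0 h and 9.23, 9.07 and 9.18 at 6 h. Polysomal Mrps35 read 10.97, 11.25 and 11.34 at 0 h and 11.18, 11.17 and 11.37 at 6 h. This gene, particular to mitochondria, had a difference of -0.70 (SE 0.11, adjusted p = 0.000335) in the non-polysomal and of 0.05 in the polysomal pool (adjusted p = 0.678), where the values overlapped. Mrpl27, the counterpart of a bacterial protein at the peptidyl transferase centre, moved little. Non-polysomal Mrpl27 read 12.20, 12.39 and 12.31 at 0 h and 12.00, 11.99 and 12.07 at 6 h. Polysomal Mrpl27 read 12.26, 12.45 and 12.36 at 0 h and 12.22, 12.24 and 12.29 at 6 h. Its p6 - p0 of -0.11 did not pass (adjusted p = 0.255) and its np6 - np0 of -0.28 did (adjusted p = 0.0149).

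**Figure D2:**
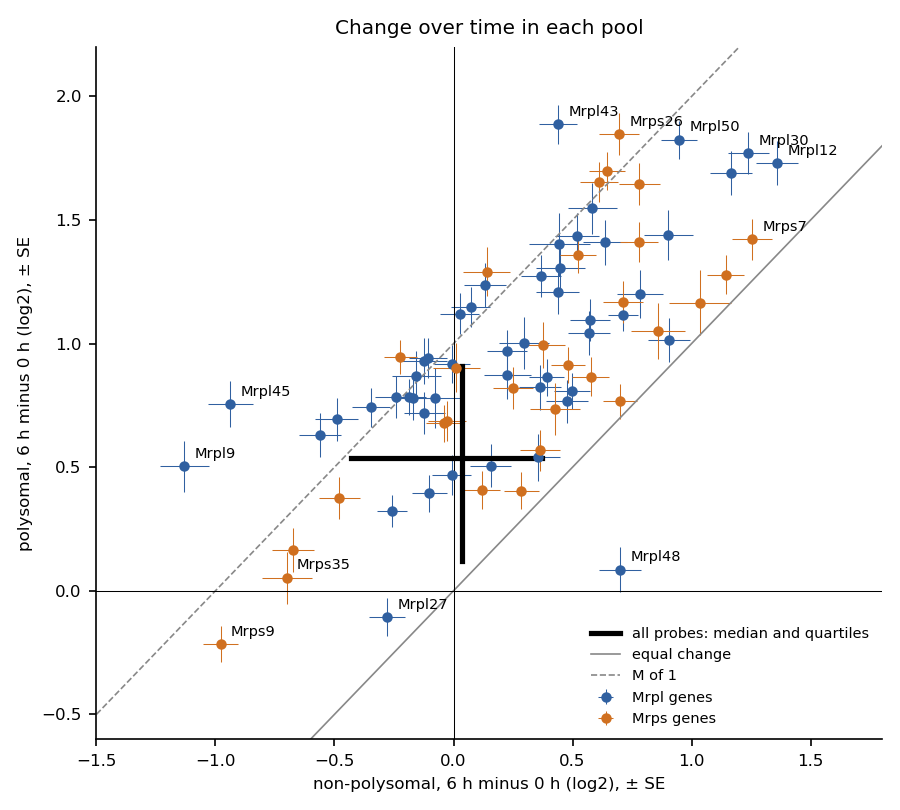
Change from 0 h to 6 h in the polysomal pool (vertical) against the non-polysomal pool (horizontal), log2 with standard errors, for the 49 Mrpl (blue) and 29 Mrps (orange) genes, and the cross gives the median and quartiles of all probes. Nearly every gene lies above the solid line of equal change, 18 genes, led by Mrpl45, Mrpl9 and Mrpl43, lie beyond the dashed line that marks an M-value of 1, and Mrpl48 is the only gene below the solid line.

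The M-value asks whether a message gained more in the polysomal than in the non-polysomal pool. It was above 0 for 77 of the 78 genes, but for 58 with the 75th percentile and 47 with quantiles, and in all 3 replicate numbers for 74. In 63 genes (80.8%) it passed the test above 0, and in 1, Mrpl48, below 0. This was so for 32.1% and 3.98% of all probes, and for 53.7% and 6.29% of those well above background. The median was 0.73 (1.66-fold), against 0.49 over all probes and 0.50 over those well above background. Among the 18 genes called higher (23.1%, where 12.1% of all probes and 17.6% of those well above background were called), the M-value ran from 1.03 to 1.69, or 2.04-fold to 3.23-fold, and the next gene below had 0.97. No gene was called lower, where 1.31% of all probes were, and 1, Mrpl48, had an unadjusted p below 0.05 in that direction. Within the replicate numbers, each of which was 1 slide with 1 array of every group, the median of the genes was 0.74, 0.64 and 0.81 and that of all probes 0.41, 0.64 and 0.43, so that the excess over all probes was 0.34, 0.0015 and 0.38. In replicate 2 the genes thus stood level with all probes. Leaving out single arrays, 12 genes were called without the polysomal array of replicate 1 at 0 h, 14 without the polysomal array of replicate 3 at 6 h, and without any 1 of the other arrays 16 to 21.

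All 18 called genes rose in the polysomal pool with the spike-in offset. Of these, 7 fell in the non-polysomal pool, 4 rose there and 7 did not pass the test there. Mrpl45 led. Its protein sits at the tunnel exit of the mitochondrial ribosome and helps tie it to the inner membrane, where the products are inserted. Non-polysomal Mrpl45 read 11.18, 11.12 and 11.14 at 0 h and 10.21, 10.21 and 10.21 at 6 h. Polysomal Mrpl45 read 12.22, 12.48 and 12.51 at 0 h and 13.11, 13.06 and 13.31 at 6 h. The 4 groups did not overlap. The non-polysomal signal fell by 0.94 and the polysomal one rose by 0.76, an M-value of 1.69 (SE 0.13, adjusted p = 1.55e-05). With quantiles 6 of the 18 were lower in the polysomal pool at 6 h, by -0.36 (Mrpl28), -0.26 (Mrpl24), -0.14 (Mrps34), -0.12 (Mrpl45), -0.041 (Mrpl9) and -0.011 (Mrpl2). Mrpl9, the counterpart of a bacterial large subunit protein, came second. Non-polysomal Mrpl9 read 8.43, 8.58 and 8.49 at 0 h and 7.42, 7.28 and 7.41 at 6 h. Polysomal Mrpl9 read 9.62, 9.86 and 9.83 at 0 h and 10.30, 10.10 and 10.43 at 6 h. The groups were again apart, with a fall of 1.13 and a rise of 0.50, and the M-value was 1.64 (SE 0.15, adjusted p = 3.24e-05). Mrpl43, whose values are given above, came next with 1.45 (SE 0.11, adjusted p = 1.51e-05) and rose in both pools.

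Mrpl24, the counterpart of a bacterial protein beside the tunnel exit, had 1.19 (SE 0.13, adjusted p = 8.11e-05). Non-polysomal Mrpl24 read 11.09, 11.21 and 11.12 at 0 h and 10.67, 10.48 and 10.59 at 6 h. Polysomal Mrpl24 read 12.45, 12.64 and 12.54 at 0 h and 13.08, 13.14 and 13.31 at 6 h. Its non-polysomal pool was lower and its polysomal pool higher at 6 h, with no overlap. Mrpl37, particular to mitochondria, had 1.18 (SE 0.13, adjusted p = 8.53e-05). Non-polysomal Mrpl37 read 8.75, 8.82 and 8.64 at 0 h and 8.31, 8.20 and 8.23 at 6 h. Polysomal Mrpl37 read 10.04, 10.26 and 10.21 at 0 h and 10.86, 10.76 and 10.97 at 6 h. It showed the same order of the groups. Mrps34, Mrps25 and Mrps26 were the highest of the small subunit, all particular to mitochondria. Non-polysomal Mrps34 read 12.79, 12.96 and 12.89 at 0 h and 12.70, 12.61 and 12.66 at 6 h. Polysomal Mrps34 read 14.11, 14.22 and 14.12 at 0 h and 15.06, 15.12 and 15.11 at 6 h. For Mrps34 most of the M-value of 1.17 came from the polysomal pool (0.95 against -0.22). Non-polysomal Mrps25 read 10.04, 10.08 and 10.02 at 0 h and 10.16, 10.18 and 10.22 at 6 h. Polysomal Mrps25 read 10.91, 11.25 and 11.20 at 0 h and 12.40, 12.30 and 12.53 at 6 h. Its M-value was 1.15, but a second probe of Mrps25, far dimmer, gave -0.14 (adjusted p = 0.679). Mrps26 had 1.15, with both pools rising.

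Mrpl48, a protein of the central protuberance, was the lowest in M. Non-polysomal Mrpl48 read 9.81, 9.97 and 9.81 at 0 h and 10.63, 10.54 and 10.52 at 6 h. Polysomal Mrpl48 read 10.02, 10.26 and 10.17 at 0 h and 10.15, 10.20 and 10.35 at 6 h. The non-polysomal values rose without overlap (0.70, SE 0.09, adjusted p = 0.000104), the polysomal values overlapped (0.09, adjusted p = 0.421), and the M-value was -0.61 (SE 0.13, adjusted p = 0.00399). It was below 0 within each replicate number (-0.69, -0.62 and -0.53) and under each of the 25 other settings run, from -1.06 to -0.13, and its adjusted p was below 0.05 in 21 of these. Mrpl48, like Mrpl23, Mrpl27 and Mrps36, has an annotated pseudogene copy, and what such copies add to the signals was not tested.

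Between these ends, 14 genes did not pass the test in M, with values from 0.07 to 0.31. The lowest were Mrps27, a small subunit protein of the pentatricopeptide repeat family, Mrpl33, Mrps33, Mrps30, Mrps24, Mrps7 and Mrpl27. Non-polysomal Mrps27 read 6.65, 6.75 and 6.77 at 0 h and 7.42, 7.38 and 7.46 at 6 h. Polysomal Mrps27 read 8.76, 8.90 and 8.73 at 0 h and 9.53, 9.56 and 9.60 at 6 h. Both pools of Mrps27 rose by similar amounts, 0.70 and 0.77, with an M-value of 0.07 (SE 0.10, adjusted p = 0.6). Non-polysomal Mrps33 read 14.33, 14.44 and 14.30 at 0 h and 14.68, 14.64 and 14.60 at 6 h. Polysomal Mrps33 read 13.75, 13.98 and 13.91 at 0 h and 14.29, 14.26 and 14.29 at 6 h. Here the M-value was 0.12 (adjusted p = 0.385), with an np6 - np0 of 0.29 and a p6 - p0 of 0.41, and the times did not overlap in either pool. Non-polysomal Mrps30 read 9.87, 9.87 and 9.85 at 0 h and 10.93, 10.89 and 10.87 at 6 h. Polysomal Mrps30 read 11.07, 11.59 and 11.58 at 0 h and 12.57, 12.46 and 12.70 at 6 h. Mrps30, which structures place in the large subunit despite its name, had 0.13 (SE 0.19, adjusted p = 0.592), the largest error among the 78 genes. For Mrpl33 the M-value was 0.11 (adjusted p = 0.503) and for Mrps24 0.13 (adjusted p = 0.349), and both stayed lower in the polysomal pool.

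**Figure D3:**
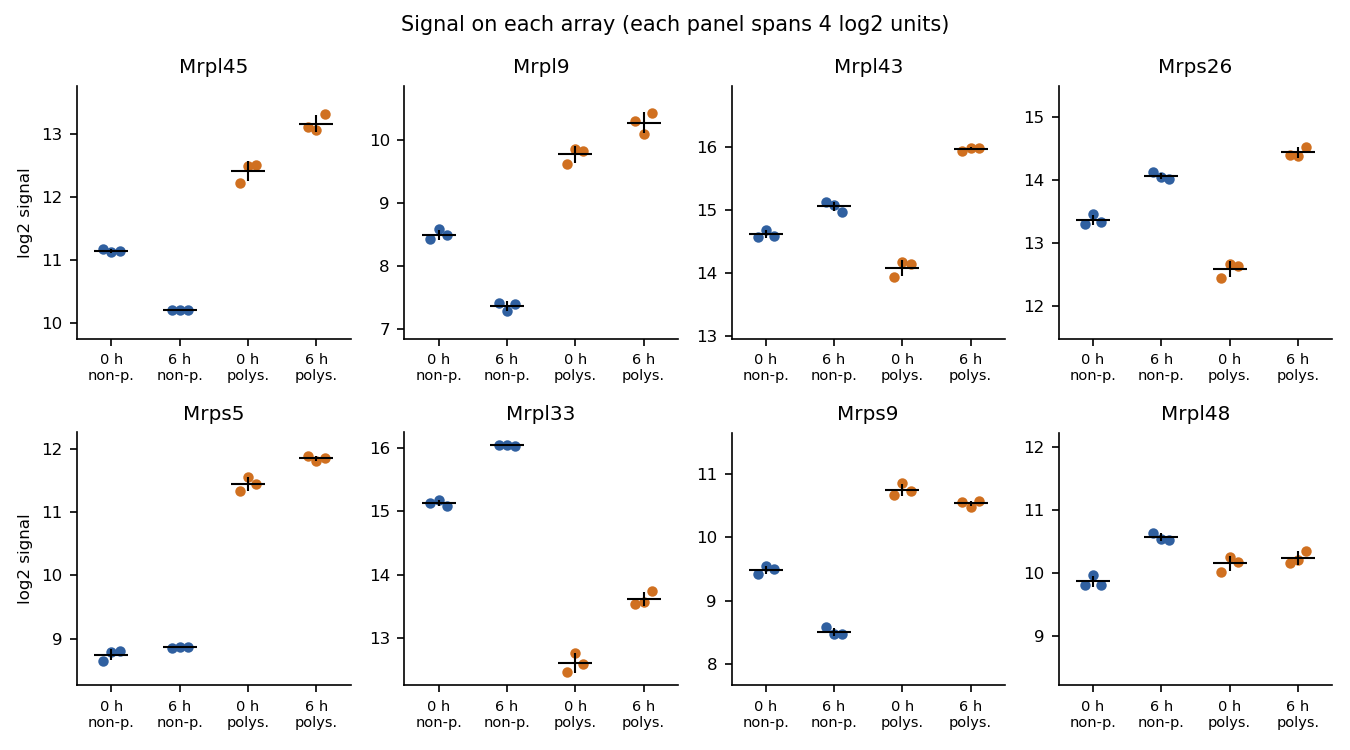
Log2 signal of 8 genes on each of the 12 arrays (points; blue non-polysomal, orange polysomal), with the mean and standard deviation of the 3 replicates in black. With the spike-in offset, Mrpl45 and Mrpl9 fall in the non-polysomal and rise in the polysomal pool, and Mrpl43 and Mrps26 change places between the pools. With this offset Mrps5 and Mrpl33 keep their pools apart at both times, Mrps9 falls in both pools, and Mrpl48 rises in the non-polysomal pool alone.

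The genes of both subunits and of each structural group held members above 0 in M. For comparison, 32.1% of all probes and 53.7% of those well above background passed the test above 0. Below 0 the shares were 3.98% and 6.29%, and 12.1% and 17.6% were called higher. Mrpl genes had a median M-value of 0.77, with 44 above 0 and 1 below at an adjusted p below 0.05 and 13 called. Mrps genes had 0.63, with 19 above, none below and 5 called. For the 48 genes with a bacterial counterpart the median was 0.72 (9 called) and for the 30 particular to mitochondria 0.76 (9 called). These differences between groups of genes were not tested. All 8 genes around the tunnel exit (Mrpl17, Mrpl22, Mrpl23, Mrpl24, Mrpl39, Mrpl44, Mrpl45 and Mrpl47) passed the test in M, with a median of 0.94. Of these, 4 were called, where 12.1% of all probes and 17.6% of those well above background were. They were all called higher in the polysomal pool at 6 h (median 2.30), where 37.4% of all probes and 59% of those well above background were. At 0 h 6 of them were called higher (median 1.43), beside 27.4% and 46.5%. But Mrpl17 and Mrpl23 were lower in the polysomal pool at 0 h with the 75th percentile (-0.47 and -0.73) and with quantiles (-0.31 and -0.39). At 6 h Mrpl17 was lower with both (-0.039 and -0.043) and Mrpl23 with the first (-0.083). Of the 8 genes of the central protuberance, 5 passed above 0, Mrpl48 passed below and Mrpl38 was called (1.10), with a median of 0.48. Their p6 - np6 had a median of 0.26 but ran from -0.95 to 2.75. By this difference 5 of them were higher and 3 lower in the polysomal pool at an adjusted p below 0.05. The 3 genes of the stalk, Mrpl10, Mrpl11 and Mrpl12, had M-values of 0.40, 0.97 and 0.37 and all passed, although that of Mrpl12 turned below 0 with the 75th percentile and with quantiles (-0.054 and -0.049).

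Of the 78 genes, 28 had several probes. Their M-values differed by a median of 0.17, and by more than 1 for Mrps25 alone. In 7 genes the probes differed in call, Mrps25 and 6 others whose probes lay on either side of 1. Non-polysomal Mrps17 read 12.54, 12.53 and 12.47 at 0 h and 13.19, 13.10 and 13.18 at 6 h. Polysomal Mrps17 read 12.11, 12.31 and 12.31 at 0 h and 13.92, 13.89 and 14.02 at 6 h. Mrps17 crossed between the pools with the spike-in offset, and its M-value was 1.06 (SE 0.11, adjusted p = 7.34e-05). Non-polysomal Mrpl28 read 15.20, 15.24 and 15.21 at 0 h and 15.13, 15.12 and 15.08 at 6 h. Polysomal Mrpl28 read 15.63, 15.91 and 15.82 at 0 h and 16.70, 16.70 and 16.78 at 6 h. Its M-value was 1.05, and 0.87 by its other probe. Non-polysomal Mrps23 read 10.04, 10.03 and 10.01 at 0 h and 10.63, 10.70 and 10.58 at 6 h. Polysomal Mrps23 read 10.06, 10.28 and 10.23 at 0 h and 11.74, 11.84 and 11.95 at 6 h. Mrps23 had 1.04, with both pools rising.

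Non-polysomal Mrpl44 read 9.69, 9.56 and 9.47 at 0 h and 9.54, 9.38 and 9.33 at 6 h. Polysomal Mrpl44 read 10.90, 11.00 and 11.16 at 0 h and 11.84, 11.81 and 12.03 at 6 h. Mrpl44, which resembles a ribonuclease III, had 1.03 by its brightest probe and 0.74 to 1.10 over its 3 probes. Non-polysomal Mrpl42 read 11.57, 11.61 and 11.51 at 0 h and 11.92, 11.97 and 11.90 at 6 h. Polysomal Mrpl42 read 9.43, 9.67 and 9.65 at 0 h and 10.78, 10.83 and 10.97 at 6 h. Mrpl42 had 0.90 and 1.19 by its other probe, and its polysomal pool was the lower one at both times. Non-polysomal Mrps18c read 11.74, 11.71 and 11.70 at 0 h and 11.75, 11.74 and 11.68 at 6 h. Polysomal Mrps18c read 11.36, 11.68 and 11.53 at 0 h and 12.32, 12.36 and 12.59 at 6 h. Mrps18c had 0.89, with a rise in the polysomal pool alone.

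The other genes of mitochondrial translation, taken from lists, had members on both sides of 0. For comparison, 32.1% of all probes passed above 0 in M and 12.1% were called higher. Among the probes well above background the shares were 53.7% and 17.6%. Of 5 other mitoribosomal subunits 3 passed above 0 in M and 2 were called, Dap3 (1.22) and Gadd45gip1 (1.11). Of 11 translation factors 6 passed above 0 and 2 below. Tufm, the elongation factor that delivers aminoacyl-tRNA, had 1.44, and Tsfm, which recharges it, 1.17, whereas Mtif2, the initiation factor, had -0.67, and Mrrf, the recycling factor, -0.30. Of 23 assembly factors 13 passed above 0 and none below, with 5 called (Mrm1, Gtpbp10, Tfb1m, Mterf4 and Ybey, from 1.10 to 1.30). Of 10 genes of mitochondrial transcription and RNA 7 passed above 0, among them Tfam (0.73), and 1 below, Lrpprc (-0.62), which protects mitochondrial messages. The median M-values of these 4 lists were 0.39, 0.51, 0.45 and 0.48, near the 0.49 of all probes. Among 9 regulators of nuclear mitochondrial genes, 5 passed above 0 in M and none below. Myc, which drives genes of ribosomes and growth, rose by 3.12 in the polysomal pool (adjusted p = 3.03e-09) and 2.22 in the non-polysomal one (adjusted p = 4.38e-08), and Ppargc1a, a coactivator of mitochondrial genes, changed by -4.10 (adjusted p = 2.11e-09) and -3.98 (adjusted p = 5.15e-09).

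The messages of the cytosolic ribosome, the machine that translates all these genes, had higher M-values. The 78 cytosolic ribosomal protein genes had a median M-value of 1.73, 74 of them called (94.9%), against 0.73 and 18, and a median p0 - np0 of -1.28, 77 of them lower in the polysomal pool and none higher, against 0.41. The median np6 - np0 was 0.35 against 0.36. The median p6 - p0 was 2.10 against 0.92. The 84 nuclear subunits of the respiratory chain, whose partners the mitochondrial ribosome makes, had a median M-value of 0.72 and a median p0 - np0 of -0.21. Of these, 24 were called in M (28.6%, beside 17.6% of the probes well above background). These lists were compared by their medians and counts alone.

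**Figure D4:**
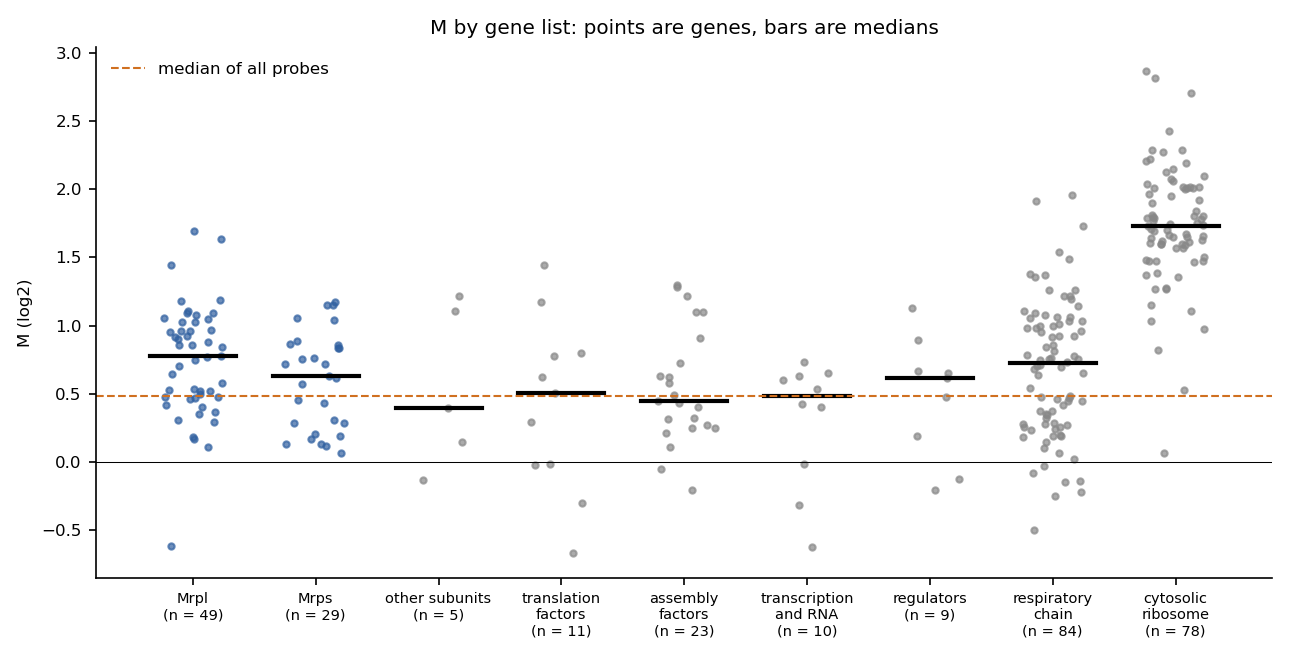
M-values (log2) of the genes of each list, 1 point a gene, with the median as a bar; the dashed line is the median of all probes, 0.49. The Mrpl and Mrps genes (medians 0.77 and 0.63) lie near the respiratory chain (0.72), and those of the cytosolic ribosomal proteins (1.73) lie above them.

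The starts of these genes were compared with those of the cytosolic ribosome. RefSeq promoter windows (250 bases before to 50 after the start, GRCm38.p6) were found for 69 of the 78 genes. Messages of cytosolic ribosomal proteins are known to begin with a cytosine and an unbroken run of pyrimidines (a TOP tract) that puts their translation under the control of growth signals. No member began with a C and 4 or more further pyrimidines (0 of 69), where 24.1% of 58 cytosolic ribosomal protein genes, 5.88% of 68 respiratory chain genes and 3.01% of all 27025 genes did. Annotated starts can be off by some bases, and within the bases from 5 before the start to base 10 such a run was found in 17 members (24.6%), 21.2% of all genes and 48.3% of the cytosolic ones. A run of at least 5 pyrimidines of either kind stood at base 1 of 1 member, Mrpl45 (1.45%), against 5.28% of all and 29.3% of the cytosolic genes. The first 20 bases are shown for the 3 members with the highest M-values and for 1 from each end of the pool order. They are also shown for Mrpl49 and for its neighbor Fau, a cytosolic ribosomal protein gene. Rps18 and Rpl27a are cytosolic examples with such a run at the annotated base 1, and Rpl6 is one of the majority with none there. As annotated starts can be off, a window without a run does not show that the message lacks one. Capitals mark a run of at least 5 pyrimidines from base 1.

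Mrpl45 (chr11:97315716-97315735, plus strand): TCCCCTggagagcgtgcgcg
Mrpl9 (chr3:94443336-94443355, plus strand): gtccgctccgctgtcatggc
Mrpl43 (chr19:45006423-45006442, minus strand): ggttagtcccgccccccggc
Mrps5 (chr2:127587426-127587445, plus strand): gcatggcggcggccgtacgc
Mrpl33 (chr5:31613951-31613970, plus strand): gaagtagtcgttgagctctt
Mrpl49 (chr19:6057736-6057755, minus strand): actcagttgaggcgccaaga
Fau (chr19:6057947-6057966, plus strand): CTTCCTCTTTCTTgactcca
Rps18 (chr17:33955646-33955665, minus strand): CTCTCTTCCacaggaggcct
Rpl27a (chr7:109519195-109519214, plus strand): TCCCTTTTCCCTTTCTgcca
Rpl6 (chr5:121204501-121204520, plus strand): attgcttatagaccggaagc

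Mrpl49 and Fau start 192 bases apart in opposite directions. Fau had the long tract, a p0 - np0 of -1.31 and an M-value of 1.61. Mrpl49 had none at its annotated start, a p0 - np0 of 0.27 (adjusted p = 0.118) and an M-value of 0.96 (SE 0.18, adjusted p = 0.00243). This is 1 pair, and whether the tract goes with these values was not tested. Of the cytosolic ribosomal protein genes, 94.9% were called in M, and 24.1% of the 58 with a window began with a C and 4 or more further pyrimidines. Non-polysomal Mrpl49 read 12.20, 12.24 and 12.15 at 0 h and 12.52, 12.72 and 12.68 at 6 h. Polysomal Mrpl49 read 12.19, 12.59 and 12.60 at 0 h and 13.88, 13.69 and 14.02 at 6 h. With the spike-in offset the 2 pools overlapped at 0 h and were apart at 6 h. With the 75th percentile the p0 - np0 and p6 - np6 of Mrpl49 were -0.62 and -0.09, and with quantiles -0.44 and -0.08. In all, 26 of 69 members (37.7%) had a start of the opposite strand within 1000 bases. This was so for 12.3% of all genes, 20.7% of the cytosolic ribosomal protein genes and 27.9% of the respiratory chain genes. Mrps11 and Mrpl46, both members, start 42 bases apart. Their differences between the pools were unlike, -0.04 and 2.19 at 0 h, and their M-values were 0.46 (adjusted p = 0.0138) and 0.19 (adjusted p = 0.281).

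The letters CCGGAAG on either strand, the core that ETS factors such as GABP (also called NRF-2) bind, were found in 26 of 69 members (37.7%). They were found in 41.4% of the cytosolic and 25% of the respiratory chain genes, in 9.93% of all genes and in 12.9% of the protein-coding ones. The windows of the members held the letters CG a median of 21 times, beside 7 over all genes. What base composition adds to these shares was not tested. Of the 31 matches 17 lay within 100 bases before the start and 11 after it. The letters TATAAA on either strand were in 5 members (7.25%, beside 15.7% of all genes and 14.8% of the protein-coding ones). The 2 motifs were counted without regard to overlap. The members with the ETS letters had a median M-value of 0.56 and those without 0.76, and a median p0 - np0 of -0.44 and 0.71. This was not tested, and a match is no proof of binding. Windows of 30 bases are shown for Mrpl43, high in M, for Mrpl27, low in M, and for Mrpl53, Mrpl52 and Mrpl3 as examples near the start, read along the strand of the gene, with CCGGAAG or its reverse complement in capitals.

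Mrpl43 (chr19:45006481-45006510, minus strand): ctcgcggtgactCCGGAAGcaaaactctcc
Mrpl27 (chr11:94653724-94653753, plus strand): tgtccgcaagacCCGGAAGtagatctatcc
Mrpl53 (chr6:83109037-83109066, plus strand): accgcggagccgCCGGAAGcggtccgttcc
Mrpl52 (chr14:54426850-54426879, plus strand): tcaagatgtcggCTTCCGGttttcccggca
Mrpl3 (chr9:105053237-105053266, plus strand): ttgagaaacggaCCGGAAGtggcccggctg

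Of the genes shown, Mrpl43 rose most in the polysomal pool (1.89), and Mrpl53 and Mrpl52 were lower in the polysomal pool at both times (-2.18 and -1.87 for Mrpl53, -1.72 and -0.95 for Mrpl52). Mrpl3 was higher in the polysomal pool at both times (1.68 and 2.42). Genes with these letters thus lay on both sides.

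The size of the M-value depended on the scaling and on the background correction. The normexp correction, whose fit failed on 3 arrays, left no gene passing the test in M above 0 or below. Under all 6 ways of scaling the median of the members was above 0, from 0.14 to 1.19, but the number called ran from 1 to 47, and with the authors' own log2 values it was 15. Against the median of all probes under the same scaling, the members were higher by 0.25 with the spike-in offset, 0.25 with the 75th percentile, 0.25 with the dimmer spike-ins, 0.22 with the authors' values and 0.14 with quantiles, and differed by -0.41 with the straight line through the spike-ins. So the sign of this difference, too, turned under 1 of them, and with the normexp correction the difference was -2.44.

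**Figure D5:**
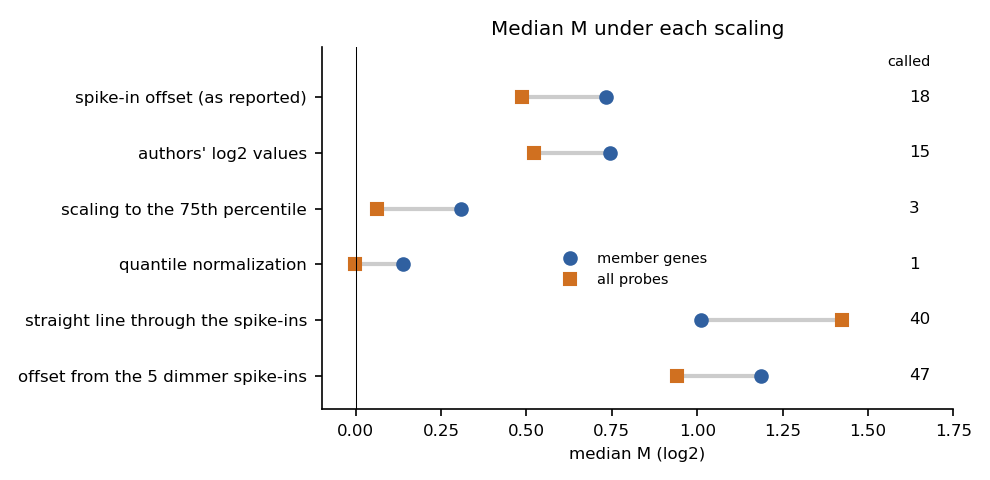
Median M-value (log2) of the 78 member genes (circles) and of all probes (squares) under 6 ways of scaling, with the number of member genes called higher at the right. The members lie above all probes in 5 of 6 and below them with the straight line through the spike-ins.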

How the data were processed

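The arrays were 1-color Agilent whole mouse genome arrays. Per the file headers, the deposited intensity of each spot (the processed signal, background-subtracted and detrended) was made with Feature Extraction 10.7.1.1, with no scaling between arrays. The authors normalized to the spike-ins, and their deposited log2 values equal the log2 of the median pixel averaged per probe plus a constant per array. These served as an alternative, with how that constant was set unknown. The deposited files hold other marks per spot (well above background, outlier).

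Here outlier spots and control spots were left out, log2 signals averaged per probe, and 1 offset per array set from 10 spike-ins. All 12 arrays were fitted in 1 model of 4 groups with limma 3.58.1 (R 4.3.3, with the data.table package, version 1.17.8), with Benjamini-Hochberg adjustment over all probes, and the scripts were checked on simulated data. A call needed an adjusted p below 0.05 and a difference of more than 1 on the log2 scale. Probes were named through their accessions and RefSeq, which gave 26690 of 41174 probes (64.8%) a symbol. All 12 arrays were used, 3 per group, 41174 probes each. The labels do not say whether replicates came from separate cultures. If they did not, p-values measure only the spread between these samples, which may be technical. Slide and replicate number cannot be told apart.

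The members, the lists and the named genes (the 8 highest and 8 lowest in M, the 4 highest and 4 lowest of each other difference, and genes whose probes differed in call) were chosen with earlier results of these data known. Alternatives were other scalings, a background correction, the authors' values, filters on dim probes and outlier spots, the mean over a gene's probes, the replicate block and leaving out arrays.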

Additional observations from a re-analysis of the deposited data

Results flagged for a closer look

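The change from 0 h to 6 h differed between the polysomal and the non-polysomal pool, by the test of the M-value itself (limma, adjusted p below 0.05), in 63 genes toward the polysomal pool, 18 of them more than 2-fold, and in 1 toward the non-polysomal pool. Of the probes well above background, 53.7% passed toward the polysomal and 6.29% toward the non-polysomal pool. Of the 35 genes whose values on every array are printed, those that passed were, with their M-values, Mrpl45 (1.69), Mrpl9 (1.64), Mrpl43 (1.45), Mrpl24 (1.19), Mrpl37 (1.18), Mrps34 (1.17), Mrps25 (1.15), Mrps26 (1.15), Mrps17 (1.06), Mrpl28 (1.05), Mrps23 (1.04), Mrpl44 (1.03), Mrpl16 (0.95), Mrpl42 (0.90), Mrps18c (0.89), Mrpl50 (0.88), Mrpl39 (0.84), Mrps9 (0.76), Mrps35 (0.75), Mrps31 (0.57), Mrpl30 (0.53), Mrpl20 (0.52), Mrpl57 (0.42), Mrpl12 (0.37), and in the other direction Mrpl48 (-0.61). All but the last were above 0 with the spike-in offset, and those that turned under another scaling are given with the processing. Groups of 3 arrays were not searched for outlying samples.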

How the results depend on the processing

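Scaling and the background correction moved the results most. The cause of a change was not tested unless stated. With scaling to the 75th percentile 3 genes were called higher and 1 lower in M (median 0.31), 10 higher in p6 - p0 (median 0.44), 2 lower in np6 - np0, 7 higher and 27 lower in p0 - np0 (median -0.48), and 17 higher and 24 lower in p6 - np6 (median -0.087). With quantile normalization 1 was called higher and 1 lower in M (median 0.14), 4 and 1 in p6 - p0 (0.17), 1 and 3 in np6 - np0 (0.092), 8 and 19 in p0 - np0 (-0.23), and 15 and 21 in p6 - np6 (-0.053). Fitting a line through the spike-ins, 40 were called higher in M (median 1.01) and 55 in p6 - p0 (1.20), 3 lower in np6 - np0, and the median p6 - np6 was 1.48. With the 5 dimmer spike-ins, an alternative chosen after seeing the data, the figures were 47 (1.19), 63 (1.33), 2 and 1.60. The genes called higher with the 75th percentile (3) and with quantiles (1) were all among the 18, and all 18 were among the 40 and the 47. Averaging the probes of a gene gave 2 genes lower in np6 - np0. The normexp background correction, run on median pixel signals as the files used here gave no mean pixel signal, left very different array medians (its fit failed on 3 arrays). It gave 0 genes higher in M, 17 higher in p0 - np0, and medians of 0.17 for np6 - np0 and 1.09 for p6 - np6. With the authors' log2 values 15 genes were called higher in M.

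With the 75th percentile 20 and with quantiles 31 of the 78 genes had an M-value below 0. Of the 35 genes named with values on every array, these turned with the 75th percentile (Mrps27 -0.35, Mrpl33 -0.31, Mrps33 -0.30, Mrps30 -0.29, Mrps24 -0.29, Mrps7 -0.26, Mrpl27 -0.25, Mrpl46 -0.24, Mrps21 -0.23, Mrps5 -0.13, Mrpl12 -0.054, Mrpl57 -0.0064), with quantiles (Mrps33 -0.62, Mrps30 -0.47, Mrpl27 -0.44, Mrps27 -0.44, Mrpl33 -0.36, Mrps5 -0.36, Mrpl46 -0.36, Mrps7 -0.29, Mrps24 -0.12, Mrps31 -0.11, Mrps21 -0.073, Mrpl12 -0.049, Mrpl57 -0.040, Mrpl20 -0.0049) and with normexp (Mrps33 -0.18, Mrpl33 -0.078, Mrpl27 -0.018). That of Mrps30 was -0.039 without the polysomal replicate 1 at 0 h and -0.018 without replicate 1 of all groups, and reached 0.27 at most without replicate 2. For 35 single genes under 25 alternatives, 749 values kept their direction and their side of the threshold, 71 lost the threshold, 24 gained it and 31 turned.

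Leaving out 1 array, or 1 replicate of all groups, gave 12 to 21 genes called higher and 0 to 0 lower in M (median 0.67 to 0.78), 29 to 39 and 0 to 0 in p6 - p0 (0.87 to 1.00), 6 to 6 and 1 to 2 in np6 - np0 (0.33 to 0.40), 27 to 28 and 11 to 12 in p0 - np0 (0.34 to 0.47), and 43 to 45 and 9 to 10 in p6 - np6 (1.17 to 1.28).

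Replicate numbers are shared by the groups, and each number is 1 slide, but the labels do not say that they pair the samples. Deviations of same-numbered arrays from their group means correlated at -0.10 to 0.42 (18 pairs, median 0.07) and those of other pairs at -0.38 to 0.21 (36 pairs, median -0.04), and 9 of 12 arrays correlated best with their own number. With the replicate number as a block 18 genes were again called higher in M and 59 in place of 63 passed above 0.

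With 3 arrays a group, the number of arrays limits the precision: the median standard error of M was 0.12, and an exact permutation test of 3 against 3 cannot go below p = 0.1, so the tests rest on the spread shared over all probes.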
